A study of Mus musculus with 6 samples.

Results

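Insulin receptor signalling genes were examined as a group of 9: the receptors Insr and Igf1r, the docking proteins Irs1 and Irs2, the PI3 kinase subunit Pik3r1, the kinases Akt1 and Akt2, and the transcription factors Foxo1 and Foxo3. Their members were all 28 probe sets annotated with exactly 1 gene symbol, that of one of these genes. The array had 45037 probe sets besides its controls, of which 34945 had exactly 1 symbol and covered 18194 genes. A probe set is a group of short oligonucleotides on an Affymetrix array that reads 1 transcript or a few related ones. Each of 3 mutant and 3 control male mice, 3 weeks old, gave liver RNA for its own array. The mutants were Srf loxP/loxP AlfpCre and the controls Srf loxP/+ AlfpCre, so both groups carried the Cre transgene and the controls kept 1 copy of Srf without loxP sites. AlfpCre drives Cre recombinase from albumin and alpha-fetoprotein control elements, which are active in hepatocytes and their precursors. The submitters describe the mutant tissue as lacking Srf, the gene of serum response factor. No strain is named in the sources used here.

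Insulin and IGF1 bind tyrosine kinase receptors, INSR and IGF1R, which phosphorylate the IRS docking proteins. These recruit PI3 kinase, a catalytic subunit held by a regulatory one such as the product of Pik3r1, and its lipid product activates AKT. AKT phosphorylates FOXO proteins and keeps them out of the nucleus. In the fasted liver, nuclear FOXO1 raises genes such as Igfbp1, and it also raises Irs2, so the receptor end of the pathway is under feedback. Mature hepatocytes respond mainly to insulin and have little IGF1R.

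The upstream regions of the docking protein genes are shown because Irs2 had the largest log2 difference among the brightest probe sets of the 9 genes, and Igfbp1 because it had the smallest p among the liver genes listed as raised by FOXO1. Each window runs from 250 bases before to 50 bases after the annotated start, 5′ to 3′ on the gene's strand, from RefSeq on build GRCm38.p6. Capitals mark the E-box CACGTG and the sequence TGTTTTG or its reverse complement CAAAACA, the core of the insulin response sequence that FOXO proteins bind in the Igfbp1 promoter. The windows are chr8:11008880-11009179 (minus strand) for Irs2, chr1:82291390-82291689 (minus) for Irs1, chrX:141725168-141725467 (minus) for Irs4 and chr11:7197537-7197836 (plus) for Igfbp1.
Irs2: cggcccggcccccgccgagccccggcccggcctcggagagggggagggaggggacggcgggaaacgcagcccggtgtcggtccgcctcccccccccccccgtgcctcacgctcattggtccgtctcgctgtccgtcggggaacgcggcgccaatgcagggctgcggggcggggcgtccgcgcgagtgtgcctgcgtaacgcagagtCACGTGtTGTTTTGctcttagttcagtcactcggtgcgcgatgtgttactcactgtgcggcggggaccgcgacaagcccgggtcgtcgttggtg
Irs1: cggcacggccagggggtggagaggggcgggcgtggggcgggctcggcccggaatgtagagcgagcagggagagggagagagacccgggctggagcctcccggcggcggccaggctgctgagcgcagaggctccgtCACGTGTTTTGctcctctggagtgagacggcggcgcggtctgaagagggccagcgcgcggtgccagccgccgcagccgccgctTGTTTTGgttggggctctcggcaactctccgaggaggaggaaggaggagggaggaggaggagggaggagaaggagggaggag
Irs4: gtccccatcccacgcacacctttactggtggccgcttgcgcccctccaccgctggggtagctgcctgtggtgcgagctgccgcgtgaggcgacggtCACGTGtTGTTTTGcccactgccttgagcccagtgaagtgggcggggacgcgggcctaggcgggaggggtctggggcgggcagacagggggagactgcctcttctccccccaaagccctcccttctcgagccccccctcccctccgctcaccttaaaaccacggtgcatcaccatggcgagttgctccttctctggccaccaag
Igfbp1: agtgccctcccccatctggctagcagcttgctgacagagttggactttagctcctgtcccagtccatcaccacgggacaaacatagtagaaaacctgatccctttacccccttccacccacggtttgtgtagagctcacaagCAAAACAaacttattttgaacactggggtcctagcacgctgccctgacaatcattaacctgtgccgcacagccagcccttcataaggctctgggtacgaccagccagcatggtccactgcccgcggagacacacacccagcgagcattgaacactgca
In Irs2 the E-box began at base 207 of the window and TGTTTTG at base 214. In Irs1 they began at bases 136 and 140 and overlapped, with a further TGTTTTG at base 219, and in Irs4 they began at bases 97 and 104. Igfbp1 held CAAAACA at base 143 and no E-box. Read on both strands, the E-box occurred in 7.15% and TGTTTTG in 6.28% of 32851 windows of 300 bases. Both with starts within 10 bases of each other occurred in 9 windows, or 0.0274%, and 3 of those 9 belonged to Irs1, Irs2 and Irs4. The limit of 10 bases was chosen after these windows had been read, so the count is a description. The 9 include overlapping windows of 1 gene, Gm38926. Irs4 had 2 probe sets, which were too dim to be tested. A RefSeq window was found for 8 of the 9 genes, all but Insr, and these had 13 windows. TGTTTAC, another FOXO binding sequence, was in 1 of the 13, upstream of Akt1, and in 3.65% of all windows. The CArG box, the sequence that SRF binds, was in none of the 13 and in 1.63% of all windows, while the window of Srf itself held 2. A match of letters is no measurement of binding.

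Signals are given as log2 values after each array was scaled to a common trimmed mean, so a difference of 1 is a doubling. Signal served to pick which probe set stands for a gene and 1 gene to name in each list. It also served for the filter on dim signals, the background and the sums of markers. Levels of different probe sets are not otherwise compared. Background was taken as the 95th percentile of 83 probe sets of odorant, vomeronasal and taste receptors, which was 3.05 in mutants and 2.86 in controls. The Srf probe set 1418256_at read 4.18, 5.24 and 2.54 in mutants 1 to 3, against 5.31, 5.14 and 5.11 in controls 1 to 3 (adjusted p = 0.398, limma), so mutant 2 lay within the control range. On the shared and dimmer Srf probe set 1418255_s_at, the values were 3.30, 0 and 1.99 in mutants against 3.00, 3.69 and 3.37 in controls (adjusted p = 0.411, limma), and here mutant 2 was at the floor and mutant 1 within the control range. Correlations of log2 signal between arrays were 0.827 to 0.907 within the mutants and 0.937 to 0.941 within the controls. The mean log2 ratio of 3′ to 5′ control probe sets, a measure of RNA integrity and labelling, was 2.18, 1.18 and 1.57 in mutants 1 to 3, against 0.91, 0.78 and 1.22 in controls 1 to 3 (two-sided exact permutation p = 0.2, where 3 against 3 arrays cannot go below 0.1). It is called the 3′ over 5′ index from here on. Mutants 1 and 3 had a higher index than every control, so group and index are partly confounded. Differences adjusted for the index therefore cannot tell the part of the group from that of the index. All 11 hepatocyte markers tested were above background on every array, with a summed scaled signal of 64241 to 83817 in mutants and 51967 to 59729 in controls. Their log2 differences were positive for 9 and negative for 2. Asgr1 had -0.51, with all mutants below all controls (adjusted p = 0.410, limma), so the sum does not speak for every marker. Summed over a marker list, scaled signal was 847 to 2855 in mutants and 2770 to 3027 in controls for 9 stellate cell and fibroblast markers, and 433 to 1682 in mutants and 811 to 1243 in controls for 8 endothelial markers. For 8 Kupffer cell markers it was 820 to 1480 in mutants and 1323 to 1907 in controls. Log2 differences were negative for 8 of the 9 stellate cell, 5 of the 8 endothelial and 6 of the 8 Kupffer cell markers. Mutants lay below controls without overlap for Col1a1, Col1a2 and Col3a1 (adjusted p 0.295 to 0.306, limma). The same held for the Kupffer cell markers Timd4 and Adgre1 (adjusted p = 0.336 and 0.373), against 10.8% of all genes. These sums therefore do not speak for every marker. Sums of 4 cholangiocyte markers were higher in all mutants (39.3 to 62.7, against 33.9 to 36.7 in controls). Control means of 2 of them, Krt7 and Sox9, were at or below background. The sum of 2 pancreas markers was lower in all mutants (125 to 212, against 277 to 507 in controls). These 2 went opposite ways without overlap, with log2 differences of -1.96 for Cela1 and 1.98 for Cela2a (adjusted p = 0.230 and 0.111, limma). Their sum therefore does not speak for both. The 2 erythroid markers summed to 44.1 to 329 in mutants and 232 to 427 in controls, and the 1 lymphoid marker tested to 1.39 to 10.8 in mutants and 4.65 to 10.5 in controls. None of the markers tested was at 0 on an array, and the part of other cell types in the results was not tested. In whole liver, fewer cells of a type and less RNA per cell cannot be told apart.

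None of the 9 genes passed the test. Of the 28 probe sets, 25 lay above the filter on dim signals and were tested, and none reached an adjusted p under 0.05 (limma, Benjamini-Hochberg over all 27022 probe sets tested), a rule met by 20 probe sets in all, or 0.074% (0.0148% higher and 0.0592% lower in mutants). At an unadjusted p under 0.05, 4 probe sets of the members were higher in mutants, against 7.64% of all probe sets, and 3 were lower, against 6.17% (13.8% together). The split of all probe sets by direction depends on the scaling, as given in the last section. The 3 mutant arrays lay above all 3 controls for 5 of the 25, against 13.8% of all probe sets, and below them for 3, against 9.34% (23.2% together). Only a few probe sets separate these counts from the shares of the whole array. Moreover, 2 of the 5 above, Igf1r 1452108_at and 1446303_at, had both group means at or below background. Their control means (1.62 and 1.32) lay under the filter at 2.11, so they were kept only through their mutant signal. The median log2 difference of the 25 was 0.22, and that of all 27022 was 0.08. Probe sets of 1 gene share its transcripts and are not independent.

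**Figure D1:**
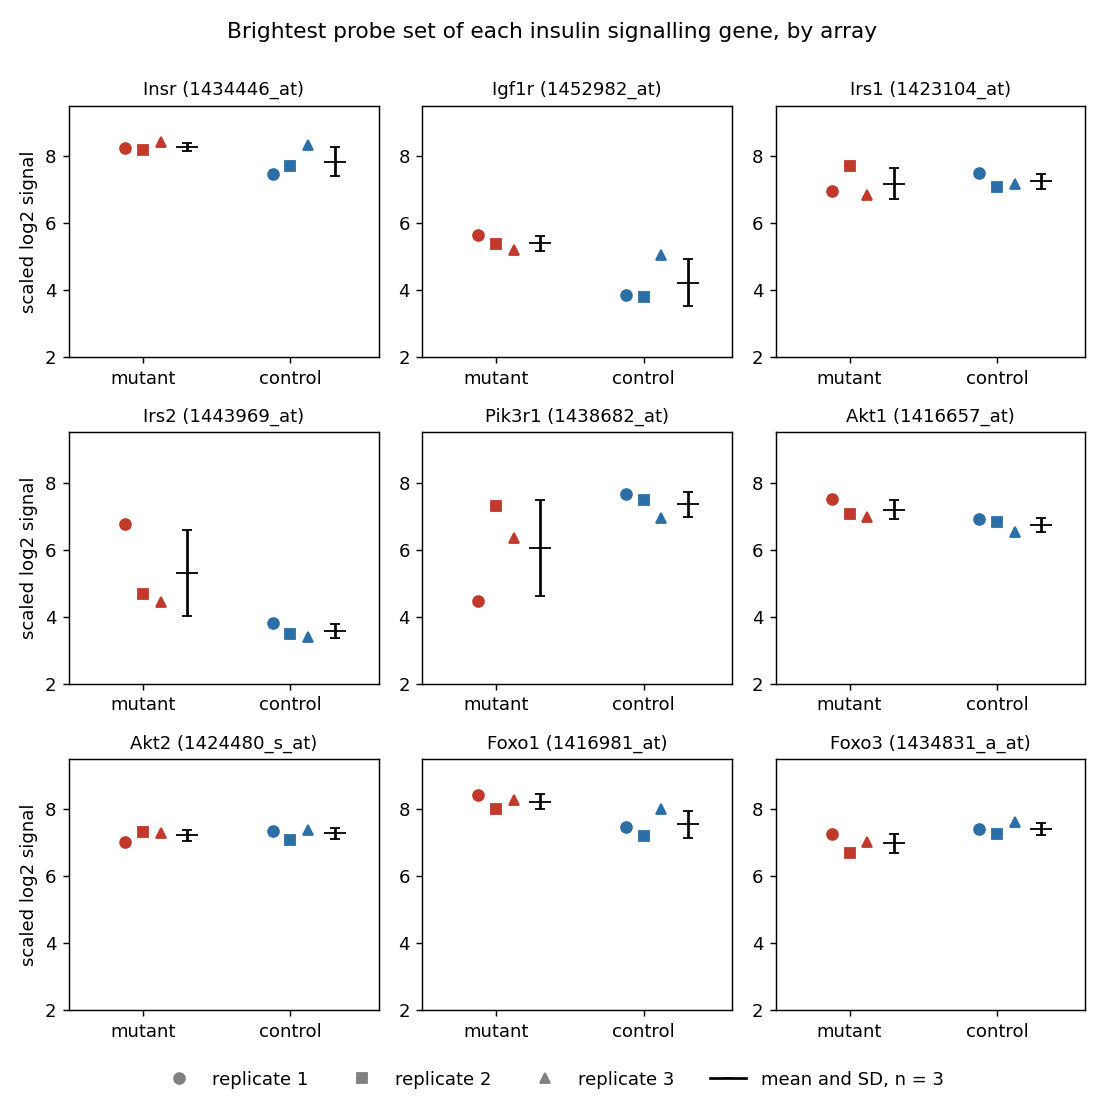
Scaled log2 signal of the brightest probe set of each of the 9 genes in 3 mutant arrays (red, left) and 3 control arrays (blue, right), with the mean and SD of each group. Irs2, Igf1r and Akt1 show all mutants above all controls, and Foxo3 all mutants below all controls, Akt1 and Foxo3 by narrow margins. Pik3r1 spreads from 4.48 to 7.30 in mutants, and Irs1 and Akt2 overlap throughout.

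Neither receptor gene passed the test. Insr encodes the insulin receptor, and its bright probe set 1434446_at read 8.25, 8.17 and 8.41 in mutants 1 to 3, against 7.47, 7.70 and 8.32 in controls 1 to 3. The mutants lay close together and control 3 reached into their range. Its log2 difference was 0.45 (SE 0.27, 95% interval -0.18 to 1.07, adjusted p = 0.448, limma), and it was -0.0055 on the deposited scaling. The other Insr probe sets were dim, with a group mean at or below background in each (1450225_at at 3.35 ± 0.58 in mutants and 2.82 ± 0.97 in controls, 1421380_at at 2.53 ± 0.80 in mutants and 3.05 ± 0.69 in controls; SD, n = 3).

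Igf1r, the IGF1 receptor, had 5 probe sets and only 1452982_at stood well clear of background. It read 5.64, 5.36 and 5.19 in mutants 1 to 3, against 3.84, 3.79 and 5.03 in controls 1 to 3. All mutants lay above all controls, with control 3 only just below mutant 3. This gave a log2 difference of 1.18, or 2.26-fold (SE 0.40, 95% interval 0.26 to 2.09, unadjusted p = 0.0183, adjusted p = 0.321, limma), and it was 0.66 after adjustment for the 3′ over 5′ index. Of the other 4, 1426565_at gave 0.29 and the 3 with both group means at or below background (1428967_at, 1452108_at and 1446303_at) carry no fold. Mutants lay above controls on 2 of these dim probe sets, 1452108_at with 2.70, 3.18 and 3.12 in mutants against 0, 2.41 and 2.46 in controls, and 1446303_at with 3.14, 2.47 and 3.20 in mutants against 1.54, 2.23 and 0.19 in controls. Both passed the filter on dim signals only through their mutant signal, so this order is no support for a difference.

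The 2 docking proteins, which carry the signal from receptor to PI3 kinase, had different patterns. Irs2, the docking protein whose gene FOXO1 raises in liver, read 6.77, 4.68 and 4.44 in mutants 1 to 3 on its single probe set 1443969_at, against 3.81, 3.50 and 3.40 in controls 1 to 3. Every mutant lay above every control, and mutant 1 stood well above the other mutants. The log2 difference was 1.73, or 3.31-fold (SE 0.60, 95% interval 0.35 to 3.10, unadjusted p = 0.0203, adjusted p = 0.326, limma). It was 0.99 without mutant 1 and 0.51 after adjustment for the 3′ over 5′ index, which was highest in mutant 1.

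Irs1, the other main docking protein of liver, read 6.96, 7.70 and 6.84 in mutants 1 to 3 on its single probe set 1423104_at, against 7.48, 7.08 and 7.16 in controls 1 to 3. The groups overlapped, with the highest value in mutant 2. The log2 difference was -0.07 (SE 0.29, 95% interval -0.75 to 0.60, adjusted p = 0.919, limma). The difference between Irs1 and Irs2 was not itself tested.

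Pik3r1, which encodes the p85α regulatory subunit of PI3 kinase, was the 1 gene whose probe sets all had negative log2 differences of over 1. The brightest, 1438682_at, read 4.48, 7.30 and 6.34 in mutants 1 to 3, against 7.65, 7.50 and 6.94 in controls 1 to 3. Mutant 2 lay within the control range and mutant 1 far below it. The other 3 had mutants in the same order: 1425514_at read 4.11, 5.92 and 5.79 in mutants, against 6.48, 6.58 and 6.37 in controls, and was the 1 probe set with no overlap. For 1425515_at the values were 2.85, 6.59 and 4.78 in mutants, against 6.64, 6.61 and 5.90 in controls, and for 1451737_at they were 3.39, 4.80 and 3.95 in mutants, against 5.50, 5.97 and 4.66 in controls. So mutant 1 was lowest and mutant 2 highest among mutants on all 4.

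The log2 differences of Pik3r1 were -1.32, -1.20, -1.64 and -1.33 in the same order, with adjusted p between 0.331 and 0.390 (limma). After adjustment for the 3′ over 5′ index they were 0.44, -0.08, 0.64 and -0.23, so the sign turned for 2 of the 4. With group and index partly confounded, this adjustment cannot tell their parts apart. The index ran in the opposite order, with mutant 1 highest at 2.18 and mutant 2 lowest among mutants at 1.18. Without mutant 1 the 4 differences were -0.54, -0.62, -0.70 and -0.999. Without mutant 2 they were -1.95, -1.53, -2.57 and -1.70, and the smallest adjusted p of any member in any setting, 0.0728, was that of 1425515_at in this setting.

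**Figure D2:**
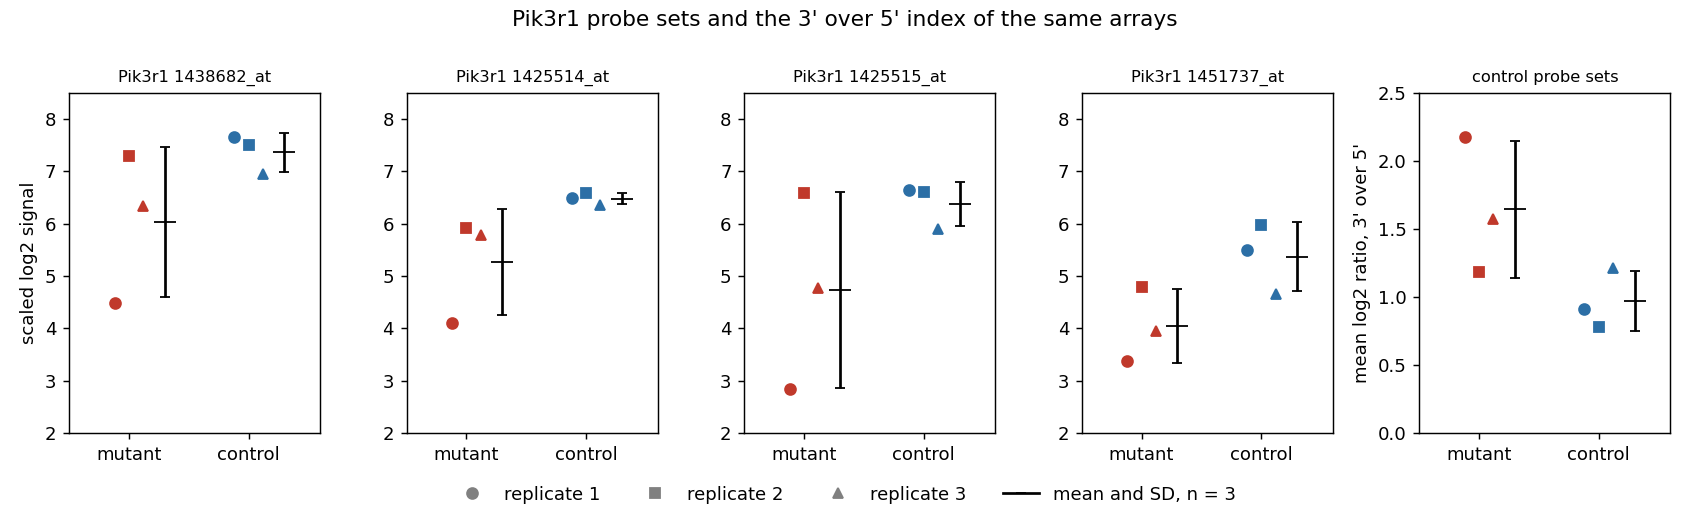
Scaled log2 signal of the 4 Pik3r1 probe sets in mutant (red, left) and control arrays (blue, right), and in the last panel the 3′ over 5′ index of the same arrays, with mean and SD (n = 3). Mutant 1 is lowest on all 4 probe sets and highest in the index.

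The AKT kinases, which PI3 kinase activates, gave small differences on their bright probe sets. Akt1, widely expressed and tied to growth, read 7.53, 7.08 and 6.99 in mutants 1 to 3 on 1416657_at, against 6.91, 6.82 and 6.52 in controls 1 to 3. All mutants lay above all controls by a narrow margin. The log2 difference was 0.45 (SE 0.26, 95% interval -0.14 to 1.04, adjusted p = 0.428, limma), and -0.0038 on the deposited scaling. The other tested Akt1 probe sets gave 0.22 (1425711_a_at) and 0.39 (1440950_at), and the dim 1442759_at was at or near 0 on all arrays and was not tested.

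Akt2, the isoform that carries most of the insulin signal to glucose metabolism in liver, had 3 probe sets that did not go the same way. The brightest, 1424480_s_at, read 7.04, 7.34 and 7.31 in mutants 1 to 3, against 7.37, 7.10 and 7.38 in controls 1 to 3, a log2 difference of -0.05 (95% interval -0.58 to 0.47, adjusted p = 0.923, limma). Its suffix marks probes that may read more than 1 transcript. On 1421324_a_at the values were 5.09, 5.66 and 5.30 in mutants, against 6.36, 6.04 and 5.86 in controls, with all mutants below all controls (log2 difference -0.74, SE 0.28, unadjusted p = 0.0306, adjusted p = 0.340, limma). The third, 1455703_at, read 4.49, 3.35 and 2.69 in mutants, against 0.73, 2.11 and 3.35 in controls, whose mean was below background. The groups overlapped, since control 3 lay above mutants 2 and 3. The log2 difference was 1.44 (95% interval -0.39 to 3.28, adjusted p = 0.418, limma), 0.78 without control 1 and 0.28 after adjustment for the index. The control mean, 2.06, also lay under the filter at 2.11, so 1455703_at was kept only through its mutant signal. Its difference is therefore no support for a change, and no fold is given. The sources used here do not give which Akt2 transcripts these probe sets read.

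The FOXO genes, at the nuclear end of the pathway, had differences of opposite sign. Foxo1, the main FOXO of gluconeogenesis, read 8.44, 8.002 and 8.27 in mutants 1 to 3 on 1416981_at, against 7.46, 7.21 and 8.007 in controls 1 to 3. Control 3 lay barely above mutant 2, and the other controls below all mutants. The log2 difference was 0.68, or 1.60-fold (SE 0.28, 95% interval 0.04 to 1.31, adjusted p = 0.353, limma). It was 0.24 after adjustment for the 3′ over 5′ index and 0.23 on the deposited scaling. A shared probe set, 1416983_s_at, gave 0.89 with the same arrays high and low (8.53, 7.73 and 8.40 in mutants, against 7.09, 7.00 and 7.91 in controls), while 1416982_at gave 0.16. The dim 1456529_at was at 0 on 5 arrays and was not tested.

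Foxo3, a FOXO protein better known for stress resistance and autophagy, read 7.26, 6.69 and 7.03 in mutants 1 to 3 on 1434831_a_at, against 7.40, 7.26 and 7.61 in controls 1 to 3. All mutants lay below all controls, mutant 1 by the narrowest margin. The log2 difference was -0.43 (SE 0.25, 95% interval -1.01 to 0.14, adjusted p = 0.429, limma), and it was -0.83 after adjustment for the 3′ over 5′ index. The second tested probe set, 1434832_at, gave -0.20. The dim 1450236_at read 0, 0.04 and 0 in mutants, against 3.12, 3.65 and 0 in controls, and was not tested because its mean lay below the filter.

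**Figure D3:**
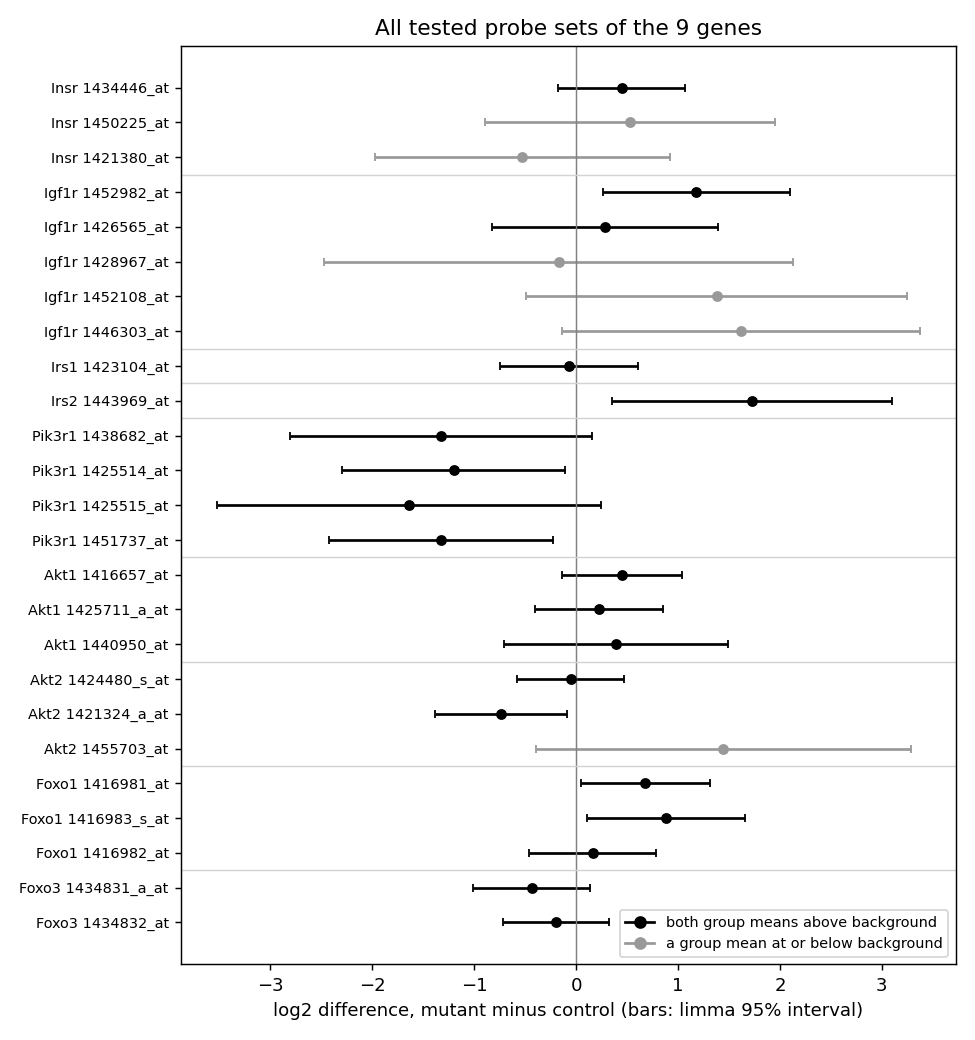
Log2 difference, mutant minus control, of the 25 tested probe sets of the 9 genes, ordered by role in the pathway, with limma's 95% interval. Grey marks probe sets with a group mean at or below background. The 4 Pik3r1 probe sets lie between -1.64 and -1.20, and 18 of the 25 intervals include 0.

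Patterns most like those of Irs2, Igf1r and Foxo1 were looked up, these being the members whose brightest probe set had an unadjusted p under 0.05. Likeness was Pearson's r of log2 signal over the 6 arrays, among the brightest probe sets of 13144 genes. Irs2 was most like Smndc1, Zfp653 and Rab22a (r = 0.998, 0.997 and 0.994). Igf1r was most like Trmt13, Ptprs and Fut10 (r = 0.988, 0.986 and 0.984), and Foxo1 most like Plin4, Cep152 and Cyp2d10 (r = 0.996, 0.996 and 0.994). How many genes reach such values was not counted. They come from 6 arrays that differ in group and in the 3′ over 5′ index, and are given as a description.

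The rest of the pathway was covered by 8 lists of 110 genes, of which 102 had a probe set of 1 symbol and 96 were tested, each by its brightest probe set. None passed at an adjusted p under 0.05 (limma), against 0.114% of the 13144 genes tested (0.0304% higher and 0.0837% lower in mutants). At an unadjusted p under 0.05, 9 of the 96 were higher in mutants, against 7.41% of all genes, and 10 were lower, against 6.99% (14.4% together). All mutants lay above all controls for 17, against 14.1% of all genes, and below them for 11, against 10.8% (24.9% together). The median log2 difference was 0.12 over the 96 and 0.06 over all genes.

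**Figure D4:**
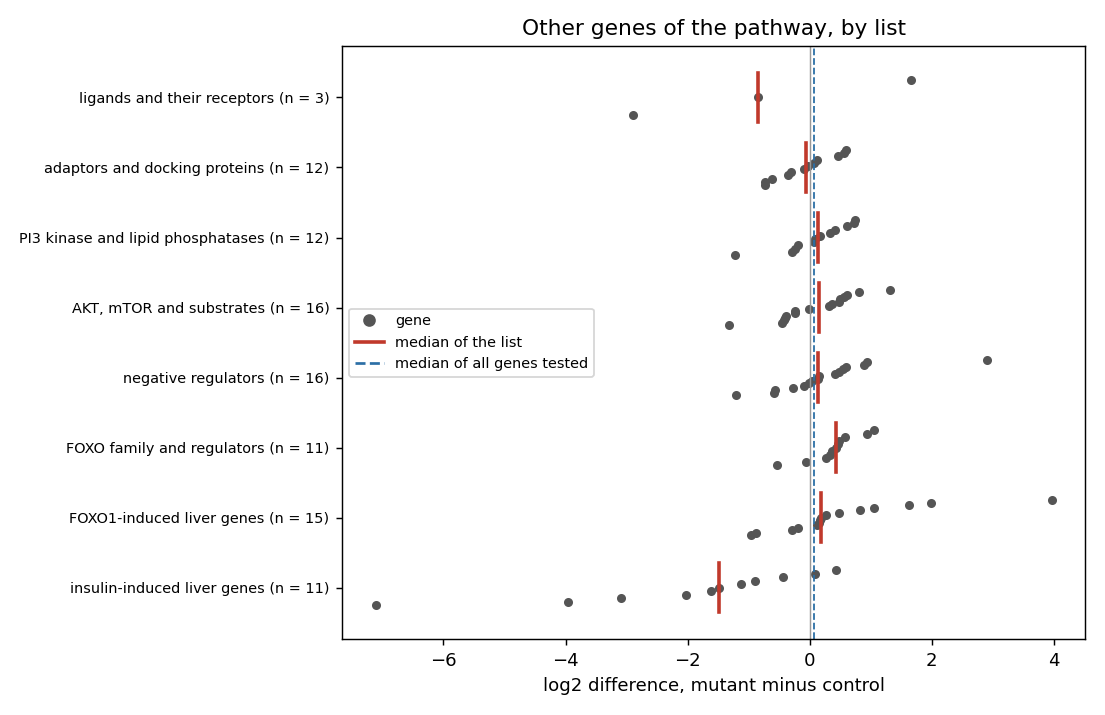
Log2 difference, mutant minus control, of each tested gene in the 8 lists (points), with the median of each list (red) and of all 13144 genes tested (dashed). The insulin-induced liver genes have the lowest median, at -1.48, and the FOXO family and regulators the highest, at 0.43.

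Among ligands and their receptors, 3 of 6 genes were tested and none passed. Igf1, the growth factor that liver secretes, read 8.63, 8.93 and 7.35 in mutants 1 to 3 (1452014_a_at), against 11.53, 11.39 and 10.65 in controls 1 to 3, with no overlap (log2 difference -2.89, SE 0.44, adjusted p = 0.0748, limma). The labels name this axis, so its direction is not independent evidence. Igf2, a fetal growth factor, read 4.14, 3.88 and 4.26 in mutants (1448152_at), against 1.12, 2.66 and 3.53 in controls, of which only control 3 was above background. That is at least 2.01-fold higher in mutants (adjusted p = 0.340, limma). Igf2r, which clears IGF2, had -0.85 (1424112_at, adjusted p = 0.458), and 0.48 after adjustment for the index.

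Adaptors and docking proteins had 12 of 16 genes tested, none past the threshold, and a median log2 difference of -0.07. Gab1, a docking protein that limits insulin signalling in liver, had 0.60 (SE 0.26, adjusted p = 0.360, limma), and the adaptor Sh2b1 had 0.56 (adjusted p = 0.431), both with all mutants above all controls. Shc1 had -0.73 (SE 0.26, adjusted p = 0.332) and Grb2 -0.62 (adjusted p = 0.387), both adaptors with all mutants below all controls. Sh2b1 had -0.027 and Grb2 0.014 after adjustment for the index. The adaptor Crk had 0.08, and 0.53 after this adjustment.

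For PI3 kinase and the lipid phosphatases, 12 of 14 genes were tested, none passed and the median was 0.13. The lipid phosphatase Inpp4a had 0.74 (adjusted p = 0.386, limma), Inpp5d, a phosphatase of blood cells, 0.72 (adjusted p = 0.436), and Pdpk1, the kinase that activates AKT, 0.42 (adjusted p = 0.424). The lipid kinase Pik3c2a had 0.61 (adjusted p = 0.499). The groups of all 4 overlapped. Adjusted for the index, Inpp5d had 0.42, Pdpk1 0.73 and Pik3c2a 1.02.

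AKT, mTOR and substrates had 16 of 18 genes tested, none past the threshold, and a median of 0.15. Sgk1, a kinase related to AKT, read 10.69, 9.26 and 8.87 in mutants 1 to 3 (1416041_at), against 8.33, 8.54 and 8.01 in controls 1 to 3. As for Irs2, mutant 1 was highest and all mutants lay above all controls (log2 difference 1.32, SE 0.45, adjusted p = 0.322, limma). Rictor, the defining subunit of the mTOR complex that phosphorylates AKT, was tight in both groups, at 6.31 ± 0.06 in mutants and 5.71 ± 0.05 in controls (SD, n = 3), a difference of 0.61 (SE 0.23, adjusted p = 0.337). The AKT substrate Gsk3a had 0.81 (adjusted p = 0.364), Tsc1 0.50 (adjusted p = 0.465) and Gys2, the liver glycogen synthase, 0.48 (adjusted p = 0.522). After adjustment for the index, the differences were 0.57 for Sgk1, 0.62 for Rictor, 0.06 for Gsk3a, -0.11 for Tsc1 and -0.38 for Gys2.

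Negative regulators had 16 of 17 genes tested, none past the threshold, and a median of 0.14. Grb14, which blocks the kinase of the insulin receptor, read 5.96, 7.81 and 7.21 in mutants 1 to 3 (1417673_at), against 8.43, 7.99 and 8.19 in controls 1 to 3. All mutants lay below all controls, with the order of mutants seen for Pik3r1 (log2 difference -1.21, SE 0.44, adjusted p = 0.333, limma). The receptor phosphatase Ptprf had -0.58 (adjusted p = 0.358) and the kinase Mapk8 0.55 (adjusted p = 0.363). Socs3, a cytokine-induced inhibitor, rested on 1 array, with 11.40, 4.65 and 5.98 in mutants 1 to 3 (1455899_x_at), against 4.47, 4.15 and 4.71 in controls 1 to 3 (adjusted p = 0.396). Grb14 had -0.18, Ptprf -0.37 and Socs3 -1.15 after adjustment for the index.

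For the FOXO family and its regulators, 11 of 12 genes were tested, none passed and the median was 0.43. Mutants lay above controls without overlap for 5 of the 11, against 14.1% of all genes, among them Sirt1, a deacetylase that acts on FOXO proteins (1.06, SE 0.41, adjusted p = 0.342, limma). Foxo4 had 0.48 (adjusted p = 0.393) and the acetyltransferase Ep300 0.59 (adjusted p = 0.371). Ppargc1a, a coactivator of FOXO1 in gluconeogenesis, had 0.95 with overlapping groups (adjusted p = 0.415), and the 14-3-3 protein Ywhab had -0.06. Adjusted for the index, Sirt1 had 0.15, Ep300 0.39 and Foxo4 0.62. All of these named genes were lower on the deposited scaling, where Sirt1 had 0.61, Ppargc1a 0.49, Ep300 0.13, Foxo4 0.031 and Ywhab -0.51. The list median of 0.43 thus depends on the scaling.

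Liver genes that FOXO1 raises had 15 of 15 genes tested and none past the threshold, with 11 positive and 4 negative differences and a median of 0.19. At an unadjusted p under 0.05 there were 4 higher and none lower, against 7.41% and 6.99% of all genes. These same 4 were the ones with no overlap, against 14.1% of all genes above and 10.8% below. Igfbp1, a secreted IGF binding protein and a classical insulin-repressed gene, read 13.52, 12.79 and 13.17 in mutants 1 to 3 (1418918_at), against 11.21, 11.70 and 11.69 in controls 1 to 3. Its log2 difference was 1.63, or 3.09-fold (SE 0.26, adjusted p = 0.0881, limma). Pdk4, which restrains pyruvate oxidation in fasting, read 11.59, 7.64 and 8.46 in mutants against 3.91, 5.24 and 6.64 in controls (1417273_at, log2 difference 3.97, SE 1.04, adjusted p = 0.269), again with mutant 1 highest.

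The ubiquitin ligase subunit Fbxo32 read 5.04, 4.37 and 4.84 in mutants (1448747_at), against 2.56, 2.28 and 3.42 in controls, of which only control 3 was above background. That is at least 3.25-fold higher in mutants (adjusted p = 0.187, limma). Ccng2, an unusual cyclin of resting cells, had 0.82 (SE 0.27, adjusted p = 0.316). After adjustment for the index, the differences were 1.19 for Igfbp1, 1.21 for Pdk4, 1.33 for Fbxo32 and 0.32 for Ccng2. The apolipoprotein gene Apoc3 had 0.16. The gluconeogenic enzymes were added to the named genes after their values were seen: G6pc had 0.16 (SE 0.39, adjusted p = 0.850) and Pck1 0.12 (SE 0.22, adjusted p = 0.794), with overlapping groups. These last 3 differences were negative on the deposited scaling and with arrays centred on the median.

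Liver genes that insulin raises had 11 of 12 genes tested, none past the threshold, and the lowest median of the 8 lists, -1.48, with 9 negative and 2 positive differences. At an unadjusted p under 0.05 there were 6 lower and none higher, against 6.99% and 7.41% of all genes. Acly, which makes cytosolic acetyl-CoA, read 7.01, 8.51 and 7.58 in mutants 1 to 3 (1451666_at), against 9.51, 9.999 and 9.69 in controls 1 to 3 (log2 difference -2.03, SE 0.38, adjusted p = 0.132, limma). Elovl6, a fatty acid elongase, read 1.41, 6.16 and 4.59 in mutants against 7.98, 8.21 and 7.84 in controls (1417404_at, -3.95, adjusted p = 0.258). The malic enzyme Me1 had -1.48 (adjusted p = 0.284), and the desaturase Scd1 had -0.90 with overlapping groups (adjusted p = 0.420).

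Thrsp, a lipogenic protein, spread widely among mutants, at 0, 9.51 and 3.90 in mutants 1 to 3 (1424737_at), against 11.89, 11.30 and 11.55 in controls 1 to 3 (log2 difference -7.11, SE 1.97, adjusted p = 0.285, limma). Mutant 1 was at the floor, so the size of this difference depends on the floor. After log2(signal + 32), Thrsp had -4.88, and Elovl6, whose mutant 1 lay below background, had -2.30. On all 4 of Acly, Elovl6, Me1 and Thrsp, mutant 2 was the mutant nearest the controls, as it was for Pik3r1 and Grb14. Mutant 2 was also the mutant nearest the controls in the 3′ over 5′ index and on Srf 1418256_at (5.24). On the dimmer Srf 1418255_s_at it was at the floor. The cause of this order of mutants was not tested. After adjustment for the index, Thrsp had -1.91, Elovl6 -1.16, Acly -1.16 and Me1 -0.70, with adjusted p of 0.930 for Thrsp, Elovl6 and Me1 and 0.745 for Acly (limma). Without mutant 2, when the calls over all probe sets numbered 563 in place of 20, Acly, Elovl6 and Thrsp passed, with adjusted p of 0.0123, 0.0373 and 0.00997, and so did Igf1 and Igfbp1, both at 0.0230.

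**Figure D5:**
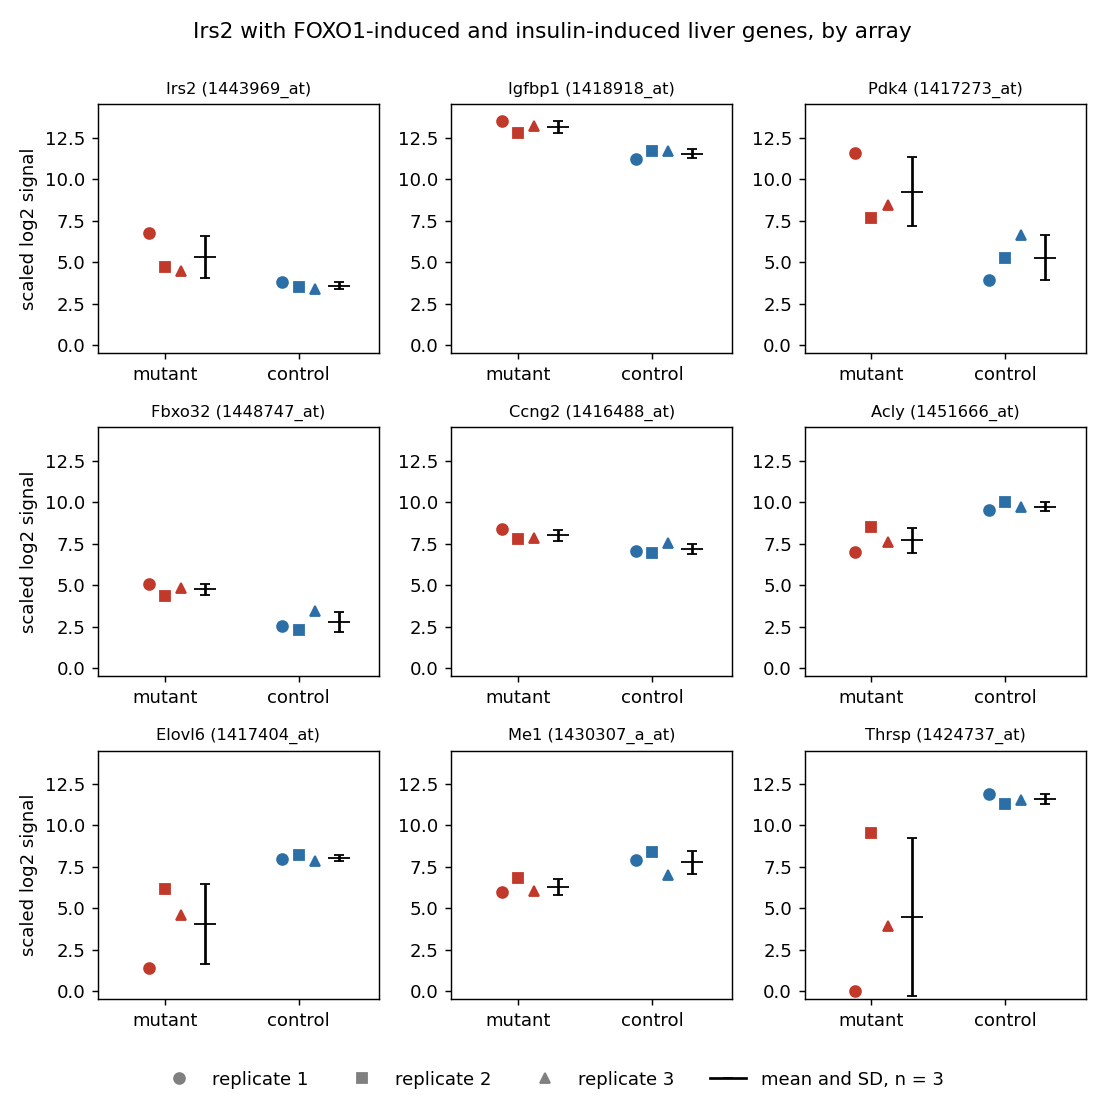
Scaled log2 signal by array of Irs2, of 4 liver genes that FOXO1 raises (Igfbp1, Pdk4, Fbxo32, Ccng2) and of 4 that insulin raises (Acly, Elovl6, Me1, Thrsp), mutants left in red and controls right in blue, with mean and SD (n = 3). All 3 mutants lie above all 3 controls in the first 5 panels and below them in the last 4.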

How the data were processed

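Biotin labelling of liver RNA from 6 mice followed the one-cycle Affymetrix protocol, per the labels' protocols, with 1 array per mouse. The deposited table holds 1 linear intensity per probe set and array, made with GCOS per the submitters' processing notes, with no version or scaling stated. Each array was multiplied to the mean trimmed mean (2% off each end; factors 0.771 to 1.45), signals under 1 were set to 1, log2 was taken, and the lower 40% of probe sets by mean signal were left out, which kept 27022. Symbols came from the platform annotation, updated by Entrez identifier. Probe sets with several symbols were not used.

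Mutants were compared with controls by lmFit and eBayes with a variance trend (limma 3.58.1, R 4.3.3), two-sided, adjusted by Benjamini-Hochberg over all probe sets kept, at a threshold of 0.05. Where 1 group mean was at or below background, the fold is a bound, with each array of that group at the higher of its own value and the background. The number of arrays limits the precision. The members and lists were chosen with earlier results of these data known. Named genes were the members, up to 4 genes of each list with the smallest p and the brightest of each, and those most like a member. The steps were tested on simulated data. The alternatives tried were scaling, floor, filter, variance prior, covariate, block, probe set choice and each array left out.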

Additional observations from a re-analysis of the deposited data

How the results depend on the processing

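No probe set of the 9 genes passed in any of the 16 settings run. The count over all probe sets was 20 (4 higher, 16 lower). It was 35 on the deposited scaling (3 higher, 32 lower), 107 after log2(signal + 32), 11 with the lower 60% left out, 9 without the variance trend, 5 after adjustment for the 3′ over 5′ index and 2 to 563 with an array left out. The counts were 126, 563 and 8 without mutant 1, 2 or 3, and 4, 2 and 3 without control 1, 2 or 3. With no filter it was 0 (limma), and an unadjusted p under 0.05 was reached by 2885 higher and 1822 lower probe sets. The median difference of all probe sets was 0.08, but -0.37 on the deposited scaling and -0.15 with arrays centred on the median, so small positive differences turn there. The split at an unadjusted p under 0.05 (limma) turned too, from 2065 higher and 1667 lower to 470 and 3425 on the deposited scaling. With arrays centred on the median it was 956 higher and 2954 lower. Of the 96 pathway genes, 3 passed after log2(signal + 32) and 0 to 6 with an array left out (3 without mutant 1, 6 without mutant 2). With the replicate block 1 passed, Igf1 (adjusted p = 0.0413), and 22 probe sets in all (3 higher, 19 lower). Same-numbered arrays did not deviate together (correlations of deviations -0.04, 0.02 and 0.04 for numbers 1 to 3), and not every array correlated best with its own number, so no pairing was assumed.

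For the brightest probe set of each named gene, signs turned as follows. On the deposited scaling, Insr had -0.0055, Akt1 -0.0038, Crk -0.38, Pdpk1 -0.034, Apoc3 -0.29, G6pc -0.29 and Pck1 -0.33. After quantile normalization, Apoc3 had -0.23 and Pck1 -0.16. With arrays centred on the median, Crk had -0.16, Apoc3 -0.073, G6pc -0.070 and Pck1 -0.11. With the index as a covariate, Irs1 had 0.30, Pik3r1 0.44, Akt2 0.058, Igf2r 0.48, Grb2 0.014, Sh2b1 -0.027, Tsc1 -0.11, Gys2 -0.38 and Socs3 -1.15. With a gene's probe sets averaged, Akt2 had 0.22, Pik3c2a -0.052, Inpp5d -0.25, Tsc1 -0.75, Ywhab 0.062 and Pck1 -0.43. Leaving out an array gave Irs1 0.030, 0.089 and 0.047 (mutant 1, mutant 3, control 1; range -0.34 to 0.089), Akt2 0.039 (mutant 1), Crk -0.20 (mutant 2; up to 0.21), Pck1 -0.0073 (mutant 2) and G6pc -0.046 and -0.088 (mutants 2 and 3; up to 0.63). Of the members' other probe sets, Igf1r 1426565_at had -0.17, Akt1 1425711_a_at -0.23, Akt1 1440950_at -0.064 and Foxo1 1416982_at -0.29 on the deposited scaling. With arrays centred on the median, Akt1 1425711_a_at had -0.0094 and Foxo1 1416982_at -0.072. Pik3r1 1425515_at had 0.64 after adjustment for the index, Akt1 1440950_at -0.10 without control 1, and the dim Igf1r 1428967_at turned in 4 settings (0.040 after log2(signal + 32), 2.01 after adjustment for the index, 0.94 without mutant 1, 0.16 without control 2). The cause was not tested.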
